A study of Mus musculus with 3 samples.

Results

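The transcripts of 1 library were described, that of RAW 264.7 macrophages carrying a control shRNA and treated with lipopolysaccharide (LPS) at 100 ng/mL for 5 h. Members were the protein-coding genes with at least 10 normalized counts in that library, which were 11546 of the 21803 protein-coding genes with a value (53.0%) and of 54331 features in the deposited table. They were ranked by value and by value per kb of the longest annotated transcript. RAW 264.7 is a mouse macrophage-like line derived from a tumour induced by Abelson murine leukaemia virus. The labels' source field writes the name as 267.4. The labels give the background strain as BALB/c, the sex as male, the genotype as wild-type and the treatment as LPS, and the protocol plated the cells overnight before LPS was added. The series is about the dampening of TLR4 signalling by GIV (Girdin), and its other 2 libraries, from LPS-treated cells given shRNAs against GIV, were not compared here. No library without LPS was used, so the values are levels after LPS and none of them shows induction.

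LPS, a component of the outer membrane of Gram-negative bacteria, is handed by CD14 to the receptor complex of TLR4 and MD-2. From the plasma membrane the complex signals through the adaptors MyD88 and TIRAP to NF-kB and the MAP kinases, and from endosomes through TRAM and TRIF to IRF3 and interferon beta. Macrophages thereby make cytokines, chemokines, prostaglandins and nitric oxide, and the secreted interferon acts back on the same cells through its receptor and the STAT factors to switch on antiviral genes. Feedback inhibitors such as A20, the NF-kB inhibitor alpha and the SOCS proteins limit both arms.

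The column summed to 49088771 normalized counts, of which protein-coding genes took 94.4%. The commonest lowest value was 0.931, about what 1 read is worth, so a gene listed at 0 is compatible with up to 3 reads, or 2.79 normalized counts, counting error only. There was 1 library and no replicate, so no value below has a replicate error and no test was made. Among the genes not counted as expressed, 7943 (36.4% of all protein-coding genes) were listed at 0 and 2314 lay above 0 and under 10. Just under the minimum were Crip2 at 9.999, Drp2 at 9.98, Ltb4r1 at 9.97, Socs2 at 9.93 and Col26a1 at 9.90 normalized counts. Just inside it were Olfr1191-ps1 at 10.03, Gm14393 at 10.1, 6430550D23Rik at 10.2, Bnc2 at 10.2 and Pth2r at 10.2. Lists of genes by function are given below by how many members reached 10, to be read against the 53.0% of all protein-coding genes and against the median of 8.18 normalized counts per kb over all of them. A list was made of genes known in macrophages or in another cell, so a share above 53.0% says that its genes were detected and nothing more.

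Markers of the labelled cell type and sex were looked up. Of 27 macrophage surface and identity genes, 26 (96.3%) reached 10 and 24 reached 20, with a median of 10370.4 normalized counts per kb. Under 10 was C1qa, a subunit of complement component C1q, at 2.80 normalized counts. The list was chosen with earlier results of these data known, so its share does not test the label. Spi1, which encodes the macrophage master factor PU.1, had 14209.8 normalized counts, Csf1r, the receptor for the growth factor CSF1, 18776, and Adgre1, the F4/80 antigen, 7150.2. The Y-linked genes Ddx3y at 3645, Eif2s3y at 2475, Kdm5d at 1291 and Uty at 932 normalized counts were all detected, and the label gives the sex as male. The library is of bulk RNA, so fewer cells making a transcript and less of it per cell cannot be told apart.

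Spp1, which encodes the secreted phosphoprotein osteopontin, was the highest gene on both scales, at 489970.1 normalized counts and 325129 per kb (chromosome 5, 104435118 to 104441050, GRCm38). It held 1.06% of the protein-coding total, and per kb it stood 957 times above the median expressed gene at 339.6. Eef1a1, the main translation elongation factor, followed at 464713 normalized counts and 259038 per kb. The order of the leading pair depended on the length used, since the ratio of Spp1 to Eef1a1 per kb ran from 0.635 with the median transcript length to 1.59 with the merged exon length. Among the 30 highest genes by value, macrophage activation genes stood beside cytoskeletal, chaperone and translation genes. Slfn4, a Schlafen family gene, was the third by value at 340801 normalized counts (chromosome 11, 83175186 to 83190216). Rsad2, the antiviral enzyme viperin, was the fifth at 290505 (chromosome 12, 26442746 to 26456452). Next to the actin gene Actb (298771) and the chaperones Hspa8 (259266) and Hsp90ab1 (211617) came the lysozyme gene Lyz2 (199781) and the glycolytic enzyme Pkm (197715).

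**Figure D1:**
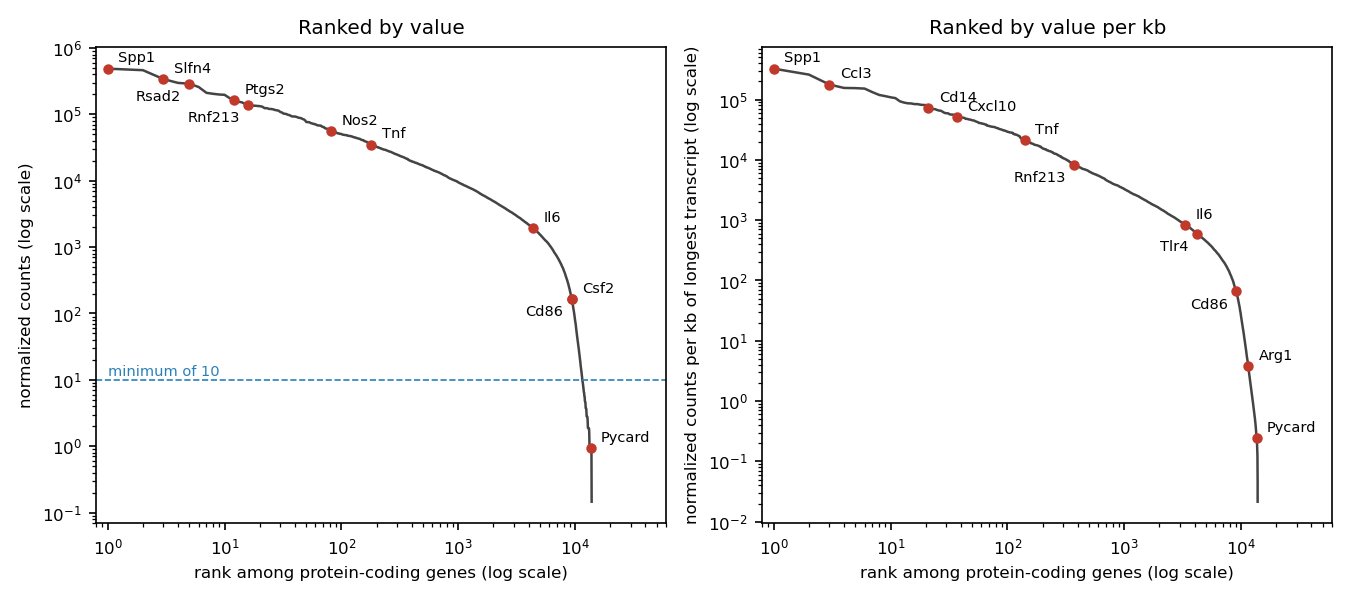
Protein-coding genes of the control library ordered by normalized counts (left) and by normalized counts per kb of the longest transcript (right), on log axes, with selected genes marked as red points and the minimum of 10 as a dashed line. Spp1 leads both panels, and the curve falls gradually over the highly ranked genes and steeply near and below the minimum, where Pycard lies at 0.931 normalized counts.

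The abundance was spread unevenly over the 11546 expressed genes. The 100 highest genes held 22.8% of the protein-coding total, while 605 genes held 50% and 4261 held 90%. Of the sum per kb, the 100 highest held 31.6% and 309 genes held 50%. By value, 1724 expressed genes lay from 10 to under 100 normalized counts, 3606 from 100 to under 1000, 5272 from 1000 to under 10000 and 910 from 10000 to under 100000. The 34 genes that reached 100000 included secreted proteins (Spp1, Il1rn, Ccl3, Ccl9, Cxcl10), interferon-response genes (Slfn4, Rsad2, Ifit2, Cmpk2), enzymes of inflammatory mediators (Ptgs2, Acod1, Odc1), lysozymes (Lyz2, Lyz1), ferritins (Fth1, Ftl1) and the LPS receptor component Cd14. Rnf213, a very large E3 ligase, had 139148 normalized counts but 8324 per kb, so it ranked 16 by value and 374 per kb (1022 with the median transcript length).

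Per kb, short transcripts moved up and long ones down. The median longest transcript was 2517 bases among the 100 highest genes by value and 1379 bases among the 100 highest per kb, and 62 genes were in both. After Spp1 and Eef1a1 the highest per kb were Ccl3, the chemokine MIP-1 alpha, at 177136, Actb at 155610.1, the mitochondrial mt-Co3 at 154569 and Lyz2 at 151809.5. Further members of the first 15 were Ftl1 at 119048, Ccl4 at 108908, B2m at 89165, the calcium-binding S100a4 at 86648 and Slfn4 at 86104. With the median transcript length Slfn4 ranked 42. The largest gains of places among the 500 highest were those of mt-Nd3, with a transcript of 348 bases, from 3679 to 450, and mt-Nd4l, with 297 bases, from 2707 to 272. The largest losses were those of Ahnak, a giant scaffold protein with a transcript of 18100 bases, from 481 to 2990, and Ube2d3, with 19300.0 bases, from 252 to 2146. The annotated 19300.0 bases of Ube2d3 come from its longest isoform, and which isoforms were made was not tested. The longest transcripts of Cxcl10 and Il1rn have 1 exon each, so their levels per kb also depend on the isoform taken. With the longest protein-coding transcript Cxcl10 ranked 18 instead of 37, and Il1rn 25 instead of 24. Lyz1 and Lyz2, Actb and Actg1, and Eno1 and the similar gene Eno1b are near-identical pairs between which reads may have been split, so their separate levels are uncertain.

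Of the genes that receive LPS, the co-receptor far exceeded the receptor. Among 8 genes of the LPS receptor complex and surface TLRs, 6 reached 10. Cd14 had 119577 normalized counts and 72868 per kb, rank 21 (39 with the median transcript length), whereas Tlr4 had 2440.2 and 599 per kb, rank 4210. The ratio of Cd14 to Tlr4 per kb was 122, and 49.1 to 157 over 4 definitions of length. Ly96, which encodes MD-2, had 812 per kb, close to Tlr1 at 732 per kb and above Tlr6 at 256. Tlr2, the receptor for bacterial lipoproteins, was the highest of the surface TLRs at 5840.2 per kb. Tlr5, the flagellin receptor, was at 2.79 normalized counts and Lbp, the serum protein that carries LPS, was listed at 0. Of the endosomal receptors, Tlr3 for double-stranded RNA had 3037 per kb and Tlr7 for single-stranded RNA 2618, above Tlr9 for DNA at 224, Tlr13 at 207 and Tlr8 at 112, and Tlr11 and Tlr12 were listed at 0. Of their chaperones in the list, Hsp90b1 (gp96), Unc93b1 and Lrrc59 were higher, at 29428, 10070.3 and 6642 per kb. Cnpy3 had 861 per kb, under Tlr3 and Tlr7.

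Downstream of the receptors nothing of the 20 listed adaptors and kinases was missing. All 20 reached 10, with a median of 784 per kb. Myd88 was the highest at 5515 per kb, Ticam1, the TRIF adaptor, had 1066, Irak1 1034, Tbk1 2033 and Traf6 388. Ticam2, which encodes the TRAM bridge between TLR4 and TRIF, was the lowest at 75.8 per kb. Of the 5 NF-kB subunits, Nfkb1 stood highest at 7589 per kb, followed by Nfkb2 at 1758, Rel at 1214, Rela at 785 and Relb at 264. The feedback inhibitors were a more abundant list, with all 23 at 10 or above and a median of 2146 per kb. Zfp36, the mRNA-destabilizing protein tristetraprolin, had 19579 per kb, Nfkbia, the NF-kB inhibitor alpha, 17828 and Socs3 17569. Dusp1, a MAP kinase phosphatase, had 6257 per kb and Tnfaip3, which encodes A20, 1667. At the low end of the inhibitors were Irak3 at 247, Socs1 at 177, Cish at 52.2 and Sigirr at 6.05 per kb. Immediate-early and AP-1 genes were detected in 21 of 23 cases, led by Junb at 12709.8 and Atf4 at 9815 per kb, with Fos at 1541 and Jun at 659. Batf at 0.932 normalized counts and Batf3, listed at 0, were the exceptions.

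Of 37 cytokine genes, 24 (64.9%) reached 10, 12 were listed at 0 and Il12b lay between. The antagonist was the highest cytokine transcript. Il1rn, which encodes the interleukin-1 receptor antagonist, had 177041 normalized counts and 69319 per kb, against 31161 and 22979.9 per kb for Il1b, the precursor of interleukin-1 beta. Their ratio per kb was 3.02, and 1.96 to 3.11 over the definitions of length. Tnf had 35124 normalized counts and 21430.4 per kb, and stood 25.7 times above Il6 (1957 and 835 per kb), or 12.2 to 26.6 times with other lengths. The next were Il27, a subunit of interleukin-27, at 14898 per kb, Csf3, which encodes G-CSF, at 10259, the anti-inflammatory Il10 at 6799, Il1a at 5173 and Il18 at 4556. Ebi3, whose product pairs with that of Il27, had 2601 per kb. The interleukin-12 genes were nearly silent: Il12b had 1.87 normalized counts, Il12a was listed at 0 and Il23a had 10.4. Csf2, which encodes GM-CSF, had 208 per kb, and Csf3 stood 49.4 times above it. Of cytokines typical of lymphocytes, Il2, Il3, Il4, Il5, Il9, Il13, Il17a, Il21, Il22 and Ifng were listed at 0. The lymphotoxin genes of the same list were detected, Ltb at 2157 and Lta at 116 normalized counts.

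Interferon beta was the type I interferon seen. Ifnb1 had 619.6 normalized counts and 826 per kb, close to Il6 per kb. Of 14 interferon alpha genes none reached 10 and 13 were listed at 0, the other being Ifnab at 0.931 normalized counts. The interferon receptor chains Ifnar1 and Ifnar2 had 935 and 928 per kb.

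**Figure D2:**
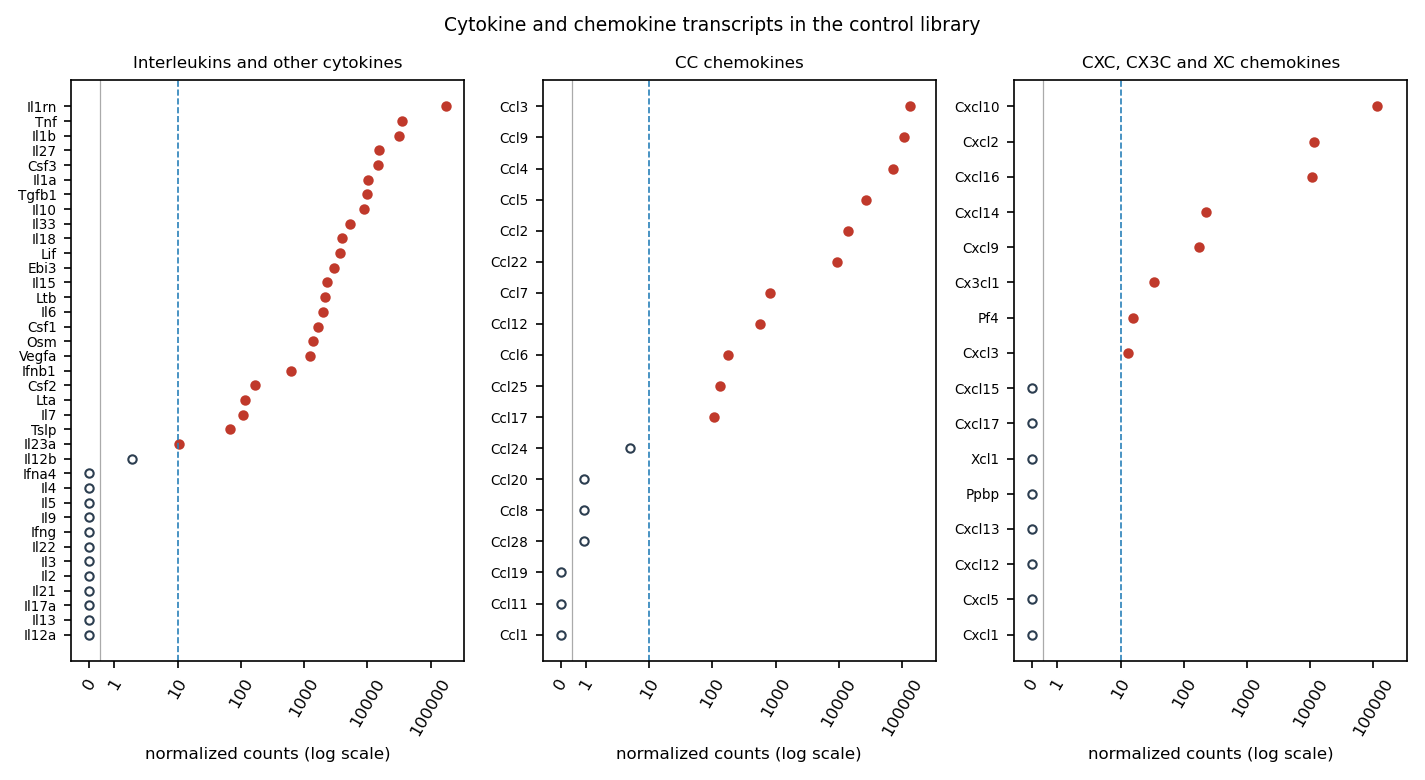
Normalized counts (log axis, with 0 set apart at the left) of each cytokine, CC chemokine and CXC, CX3C or XC chemokine gene in the control library, filled red at 10 or above and open below, with the minimum as a dashed line. Il1rn, Ccl3 and Cxcl10 lead their panels, and 12 cytokines, 3 CC and 8 CXC or XC chemokines are listed at 0.

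The CC chemokines were led by the macrophage inflammatory protein genes. Of 18 CC genes, 11 (61.1%) reached 10. Ccl3 had 135686 normalized counts and 177136 per kb, rank 3 of all genes, or 11 with the median transcript length. Ccl4, its neighbour and the MIP-1 beta gene, had 108908 per kb, Ccl5 (RANTES) 39657 and Ccl9 35518, and all 4 were among the 100 highest per kb. The monocyte attractant Ccl2 had 12867 per kb, well above its relatives Ccl12 at 1068 and Ccl7 at 1015. Ccl22, a ligand of CCR4, had 4187 per kb and Ccl17, which shares that receptor, 204. Ccl24 had 5.02 normalized counts, and Ccl1, Ccl11 and Ccl19 were listed at 0. Reads of closely related CC chemokines may be split between them.

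The CXC, CX3C and XC chemokines were fewer, with 8 of 16 (50%) at 10 or above, close to the 53.0% of all protein-coding genes. Cxcl10, the interferon-inducible attractant of T cells, had 113956 normalized counts and 51101 per kb (chromosome 5, 92346638 to 92348889). Cxcl9, which shares the receptor CXCR3, had 176 normalized counts, and Cxcl10 stood 837 times above it per kb, or up to 1380.2 times with other lengths. Cxcl11, the third ligand of that receptor, had 19333 normalized counts, but the annotation, made on the C57BL/6 reference, does not class it as protein-coding, so it was not counted as a member. Among the neutrophil attractants, Cxcl2 had 5459 per kb and Cxcl3 3.70, whereas Cxcl1 and Cxcl5 were listed at 0. Cxcl12, Cxcl13, Cxcl15, Cxcl17, Ppbp and Xcl1 were also listed at 0, and the membrane-bound Cxcl16 had 3945 per kb.

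Transcripts of receptors for part of these signals were detected. Of 34 cytokine receptor genes 29 (85.3%) reached 10. Tnfrsf1b, the second TNF receptor, was the highest at 19658 per kb and stood 8.27 times above the first, Tnfrsf1a, or 4.84 to 9.94 times with other lengths. The interleukin-10 receptor chains Il10ra and Il10rb had 871 and 781 per kb, and Il2rg, the common gamma chain, 3743. The interleukin-1 receptor gene Il1r1 had 14.0 normalized counts and its decoy Il1r2 was listed at 0, beside the high ligand transcripts Il1b and Il1rn. Of 22 chemokine receptors 12 (54.5%) reached 10, close to the 53.0% of all protein-coding genes. Their median was 9.61 per kb, against 8.18 over all protein-coding genes. The leading ones were Ccrl2 at 1772, the fractalkine receptor Cx3cr1 at 1001 and Ccr1 at 686 per kb. Ccr2 had 122 per kb, Cxcr4 2.48 normalized counts, and Ccr6, Ccr7, Ccr8, Cxcr1, Ackr2, Ackr3 and Ackr4 were listed at 0.

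The interferon-response effectors held the largest share of the total among the immune lists. All 35 reached 10, their median was 10785 per kb, they held 3.63% of the protein-coding total, and 31 of them were among the 1000 highest genes per kb. The leading ones were Rsad2 at 69349.6 per kb, Ifitm3, which blocks viral entry, at 56949, the ubiquitin-like modifier Isg15 at 49318, the tether Bst2 at 46534 and Oasl1 at 40447. Of the IFIT family, which binds viral RNA, Ifit3 had 39355 per kb, Ifit1 35034 and Ifit2 32589. Ifit3 and Ifit3b are near-identical and their split is uncertain. Cmpk2, a nucleotide kinase that neighbours Rsad2 in the genome, had 36907 per kb, and Usp18, the protease that removes Isg15, 33664. The lowest of the list was still high, Irf9 at 1836 per kb. Mx2 had 17145 normalized counts and, like Cxcl11, is not annotated as protein-coding in the reference.

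The factors and sensors of this arm were present almost in full. Irf7, the factor that amplifies interferon output, was the highest of 16 IRF and STAT genes at 26215 per kb, 22 times above Irf3 per kb and up to 33.4 times with other lengths. Stat2 had 6549 and Stat3 2286 per kb. Irf4, linked to alternative activation, had 86.1 normalized counts and Stat4 4.66. All 13 sensors of nucleic acids and cytosolic patterns reached 10. They were led by Ifi204, a DNA sensor of a family with closely related copies, at 31538 per kb, and by Ddx58 (RIG-I) at 7843 and Ifih1 (MDA5) at 7608. The NOD receptors were lower, Nod2 at 434 and Nod1 at 122 per kb. Of 16 GBP and IRG genes, the interferon-inducible GTPases, 15 reached 10, with Irgm1 at 11235, Igtp at 10609 and Gbp2 at 6783 per kb. Gvin1 was listed at 0, and Tgtp1 and Tgtp2 are near-identical copies whose split is uncertain.

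Promoters were read for the reason that NF-kB and the interferon-activated transcription complex each bind a known short motif. RefSeq's table (GRCm38.p6) gave the 250 bases before the start site of 16803 of 21777 protein-coding symbols (77.2%). The interferon-stimulated response element was searched as GAAANNGAAA, and NF-kB by its consensus, both on either strand. The element was in 12 of 29 matched promoters of the interferon-response list (41.4%), against 3.04% of all promoters. The NF-kB consensus was in 8 of those 29 (27.6%), against 7.74% of all promoters. Overlapping matches were counted once per promoter, and a match describes letters and is neither a site nor a cause. The 4 promoters shown are those of abundant members that hold the motif in different arrangements. Capitals mark the matches.
Cxcl10: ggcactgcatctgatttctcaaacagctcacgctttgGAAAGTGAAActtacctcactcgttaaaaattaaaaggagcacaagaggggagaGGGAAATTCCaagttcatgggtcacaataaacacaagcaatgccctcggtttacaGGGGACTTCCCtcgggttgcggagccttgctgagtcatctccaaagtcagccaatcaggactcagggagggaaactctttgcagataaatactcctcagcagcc
Isg15: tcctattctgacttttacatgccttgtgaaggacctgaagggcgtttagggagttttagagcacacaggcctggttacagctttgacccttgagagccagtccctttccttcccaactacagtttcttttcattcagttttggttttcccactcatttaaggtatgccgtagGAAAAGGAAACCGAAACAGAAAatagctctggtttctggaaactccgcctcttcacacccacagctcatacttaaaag
Ifit1: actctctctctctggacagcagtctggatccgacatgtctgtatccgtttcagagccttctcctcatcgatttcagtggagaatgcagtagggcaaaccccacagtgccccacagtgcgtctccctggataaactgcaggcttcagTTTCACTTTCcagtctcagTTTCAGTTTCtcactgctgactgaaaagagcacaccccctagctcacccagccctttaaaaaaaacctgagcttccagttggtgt
Rsad2: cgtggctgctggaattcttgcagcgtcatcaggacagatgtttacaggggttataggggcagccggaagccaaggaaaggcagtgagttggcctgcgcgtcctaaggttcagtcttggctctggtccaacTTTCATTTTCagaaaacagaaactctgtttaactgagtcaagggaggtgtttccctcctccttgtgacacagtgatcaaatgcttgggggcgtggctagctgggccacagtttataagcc
The first, chr5:92348890-92349139 on the minus strand, holds 1 interferon element that begins 213 bases before the start site and NF-kB matches that begin at 159, 104 and 103 bases before it, of which the last 2 overlap. That of Isg15, chr4:156200819-156201068 on the minus strand, holds 3 overlapping interferon elements that begin 78, 72 and 66 bases before the start site. That of Ifit1, chr19:34640639-34640888 on the plus strand, holds 2 separate ones at 104 and 85 bases, on the opposite strand, and that of Rsad2, chr12:26456453-26456702 on the minus strand, 1 at 120 bases, on the opposite strand. Promoters of Nos2, Ccl2, Ccl4, Ccl5 and Il10 were not used here.

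Antigen presentation was split between the classes. All 21 genes of the MHC class I pathway reached 10, with a median of 6077 per kb. B2m, the light chain, had 89165 per kb, H2-D1 43092 and H2-K1 17937, the transporter Tap1 6077 and the loading protein Tapbp 14816. The order of B2m and H2-D1 turned with the length used, their ratio per kb running from 0.552 to 2.54. The H2 genes are polymorphic and near-identical, and how BALB/c reads were assigned to the C57BL/6 reference was not tested. Of 13 class II pathway genes 5 (38.5%) reached 10. Ifi30, also listed for that pathway, had 7751 normalized counts, but it is not annotated as protein-coding and was not counted. Ctss, the protease that trims the invariant chain, had 36549 per kb and Cd74, the invariant chain itself, 5760.2, with H2-DMa at 94.5. The class II chains were near 0, H2-Aa at 1.97, H2-Ab1 at 1.65 and H2-Eb1 at 3.77 normalized counts, and Ciita, the class II transactivator, was listed at 0. Among matched class I promoters, 8 of 18 (44.4%) held the NF-kB consensus and 3 of 18 (16.7%) the interferon element. The 2 shown, those of the class I light and heavy chains, carry the NF-kB letters in capitals, and in B2m the interferon element stands just before them.
B2m: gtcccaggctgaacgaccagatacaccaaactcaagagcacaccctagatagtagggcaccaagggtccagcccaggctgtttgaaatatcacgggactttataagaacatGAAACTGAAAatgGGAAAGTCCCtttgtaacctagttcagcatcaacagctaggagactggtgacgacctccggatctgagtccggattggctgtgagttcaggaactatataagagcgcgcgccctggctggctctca
H2-K1: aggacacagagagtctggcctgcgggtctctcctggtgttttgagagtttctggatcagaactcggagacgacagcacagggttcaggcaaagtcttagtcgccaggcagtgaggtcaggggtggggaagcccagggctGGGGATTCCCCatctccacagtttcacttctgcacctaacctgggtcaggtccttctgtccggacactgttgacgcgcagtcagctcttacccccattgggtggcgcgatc
They lie at chr2:122147437-122147686 on the plus strand and chr17:34000348-34000597 on the minus strand. The matches of B2m begin 139 bases (interferon element) and 126 bases (NF-kB) before the start site, and the overlapping NF-kB matches of H2-K1 begin at 111 and 110 bases.

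Of 14 costimulatory and checkpoint ligands 11 (78.6%) reached 10. Cd40 had 24350.1 normalized counts and 8155 per kb, and Lgals9, which encodes galectin-9, 17018 per kb. The B7 ligands were lower. Cd80 had 624 and Cd86 66.0 per kb, so that Cd40 stood 123 times above Cd86, and up to 177 times with other lengths. Cd274, which encodes PD-L1, had 1362 per kb, whereas Pdcd1lg2 (PD-L2) was at 0.936 normalized counts and Cd70 was listed at 0.

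A few enzymes of inflammatory mediators were among the highest genes of the library. Most of their lists were far lower. The median was 262 per kb over 14 nitric oxide, arginine and itaconate genes. Over 16 prostaglandin and leukotriene genes it was 90.9 per kb. Acod1, which makes itaconate from a citrate-cycle intermediate, had 155559.7 normalized counts and 59306 per kb. Odc1, the first enzyme of polyamine synthesis, had 56304 per kb, and Nos2, the inducible nitric oxide synthase, 56568 normalized counts and 13494 per kb (chromosome 11, 78920787 to 78960254). The arginases, which compete with it for arginine, were low: Arg2 had 144 per kb and Arg1 5.67 normalized counts, and Nos2 stood 93.5 times above Arg2 per kb, or 88.8 to 114 times with other lengths. Ptgs2, the inducible cyclooxygenase, had 164117 normalized counts and 36855 per kb, rank 68, while Ptgs1 had 12.9 normalized counts. Among the prostaglandin E synthases downstream of it, Ptges3, which is also a co-chaperone, had 7926 per kb, the inducible Ptges 124 and Ptges2 122. Of the synthases for other prostaglandins and thromboxane, Hpgds had 132 and Tbxas1 17.8 per kb, while Ptgds and Ptgis were listed at 0. For leukotrienes, Alox5 had 60.2 per kb and its partner Alox5ap 1692.

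Of the phagocyte oxidase, Cybb had 18639, Cyba 13966, Ncf1 5449 and Ncf4 4668 per kb, while Duox1, Duox2 and Nox3 were listed at 0. Of 16 inflammasome and pyroptosis genes 15 reached 10. Casp1 had 7829.9, Gsdmd, the pore former, 4877, Casp4, the intracellular LPS sensor (caspase-11), 4338 and Nlrp3 2792 per kb. The exception was Pycard, which encodes the adaptor ASC between NLRP3 and caspase-1, at 0.931 normalized counts. RAW 264.7 cells are known for the lack of ASC. Nlrc4 had 67.4 and Gsdme 11.6 normalized counts.

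Receptors and enzymes of uptake were present in part. Of the Fc receptor list, Fcer1g, the signalling chain, had 25568 per kb, its relative Tyrobp 22100.5 and Fcgr1, the high-affinity IgG receptor, 18816. Fcgr1 exceeded the other IgG receptors, Fcgr4 at 3920.3, the inhibitory Fcgr2b at 769 and Fcgr3 at 644 per kb. Of 22 scavenger and uptake receptors 14 (63.6%) reached 10, led by Cd68 at 20113, Msr1 at 15366 and Cd36 at 7859 per kb. Marco, Cd163, Timd4, Stab2 and Scara3 were listed at 0, and Mertk, which takes up dying cells, had 15.0 normalized counts. Complement was a mixed list with 10 of 19 (52.6%) at 10 or above, close to the 53.0% of all protein-coding genes. Properdin (Cfp) had 8365 per kb, factor B (Cfb) 7240.4 and the anaphylatoxin receptor C3ar1 3546, whereas the C1q genes were low, C1qa at 2.80, C1qb at 6.51 and C1qc at 0.909 normalized counts. Cathepsins and lysosomal proteins, 32 of 34 at 10 or above, held 2.16% of the protein-coding total, and the lysozyme genes Lyz2 and Lyz1, counted in this list, held 0.431% and 0.288%. Ctsd had 36209 per kb, Ctsb 28594 and Ctsz 27006, while Ctsg and Ctsw, enzymes of granulocytes and killer lymphocytes, were listed at 0. The ratio of Ctsd to Ctsl per kb ran from 0.642 to 5.13 with the length used.

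**Figure D3:**
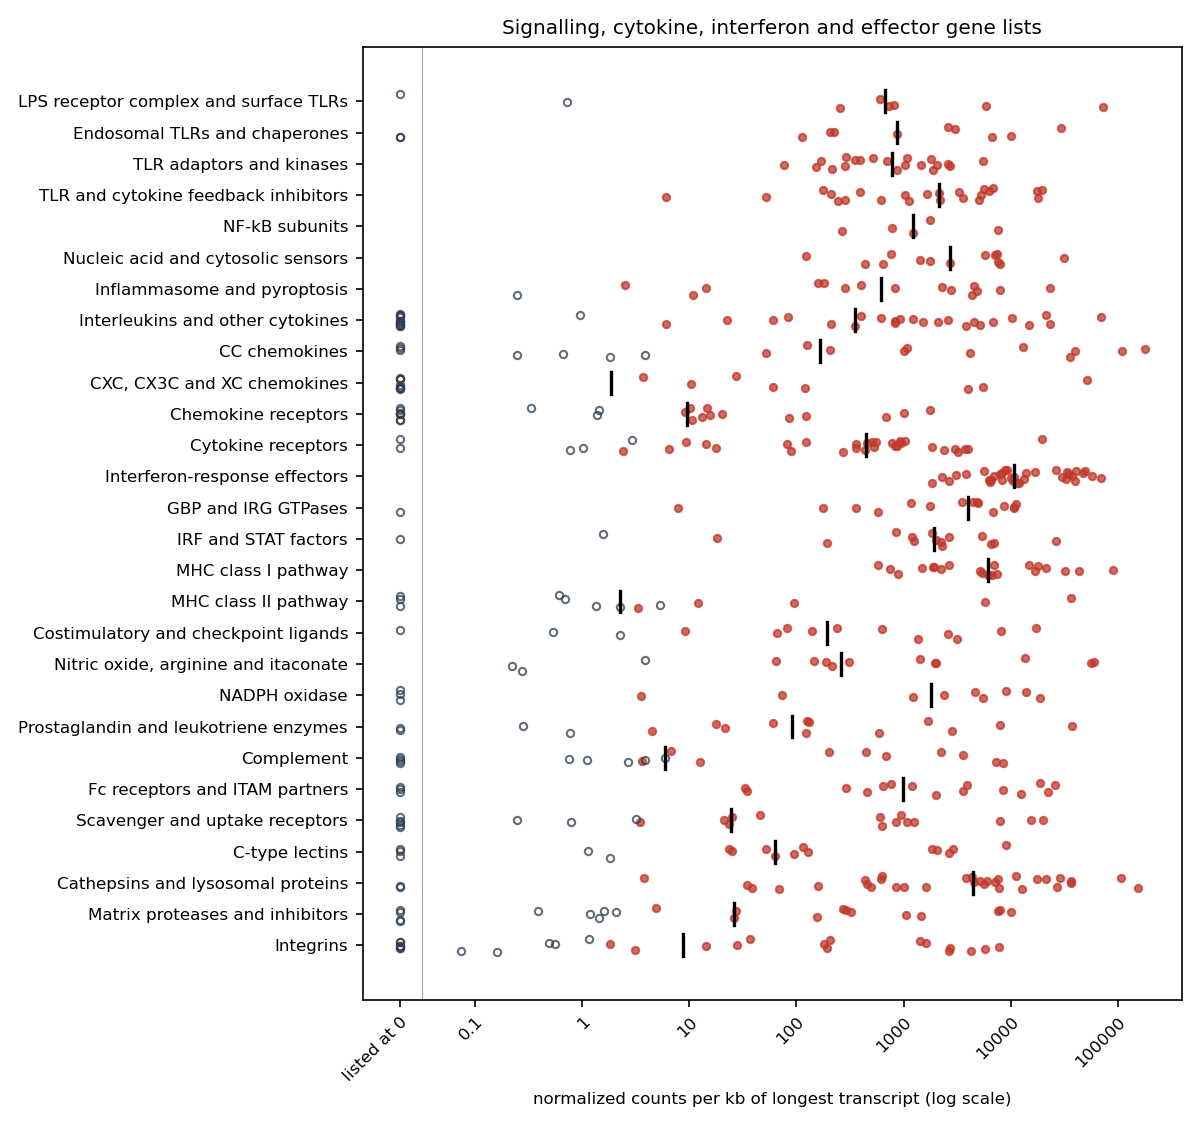
Normalized counts per kb of the longest transcript (log axis, genes listed at 0 set apart at the left) for each gene of the signalling, cytokine, interferon, antigen and effector lists, with filled points at 10 normalized counts or above, open points below and a black bar at the median over all measured members. Interferon-response effectors lie furthest to the right with a median of 10785, and class II genes split between 2 high and many low points.

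Matrix proteases and integrins reached 10 at close to the 53.0% of all protein-coding genes. Of 21 matrix proteases and inhibitors 12 (57.1%) did so, with the urokinase receptor Plaur at 9982, Timp1 at 7619.6 and the gelatinase Mmp9 at 1459 per kb. Mmp3, Mmp7, Mmp10 and Mmp11 were listed at 0. Among 26 integrins, 15 (57.7%) reached 10. Itga5, of the fibronectin receptor, had 7701 per kb, and the chains of Mac-1, Itgb2 and Itgam, had 5742 and 4270.5.

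Lineage factors of macrophages were detected, and markers of resident tissue types were mostly low. Of 30 lineage transcription factors 26 reached 10, and Gata6, Spic and Myb, factors of peritoneal macrophages, red pulp macrophages and progenitors, were listed at 0. Kupffer cell genes reached 10 in 3 of 9 cases, microglia genes in 3 of 12, alveolar genes in 4 of 12, peritoneal genes in 3 of 12 and red pulp genes in 1 of 8, all below 53.0%. The microglial genes Tmem119, at 0.932 normalized counts, and Sall1, listed at 0, were at or near 0, and so was the iron exporter Slc40a1 at 2.98. Members that passed could be high. Cx3cr1 of the microglia list had 1001 per kb, and the highest member of that list 1621. Osteoclast genes were an exception with 9 of 13 (69.2%). Car2, carbonic anhydrase 2, had 8343 per kb, the RANK receptor gene Tnfrsf11a 404, the factor Nfatc1 479.9, the acid phosphatase Acp5 311 and Ctsk 159, while Calcr was listed at 0. RAW 264.7 cells are used as osteoclast precursors. Alternative activation genes reached 10 in 11 of 20 cases (55.0%), close to the 53.0% of all protein-coding genes. The highest were Il10 and Ccl22, which activated macrophages also make. Mrc1, the mannose receptor, had 134 normalized counts, and Retnla, Chil3, Chil4, Cd163 and Cd209a were listed at 0.

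Markers of other cells were mostly absent, with 29 of 164 (17.7%) at 10 or above and 100 listed at 0. The B cell genes gave 3 of 16, namely Blnk, Pax5 at 138 and Ebf1 at 134 normalized counts. The T cell genes gave 2 of 14. The kinase Lck had 1162 normalized counts while Cd3e, Cd3g and Cd4 were listed at 0. Some members that passed were high. Hdc, which makes histamine and marks mast cells in the list, had 10658 normalized counts, the transferrin receptor Tfrc 28926, the VEGF receptor Flt1 8824 and the iron-binding Lcn2 3265. Mast cell genes otherwise gave 0 of the remaining 13, and endothelial genes 6 of 12. All 164 together summed to 59989 normalized counts, and the part of other cells in these values was not tested.

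**Figure D4:**
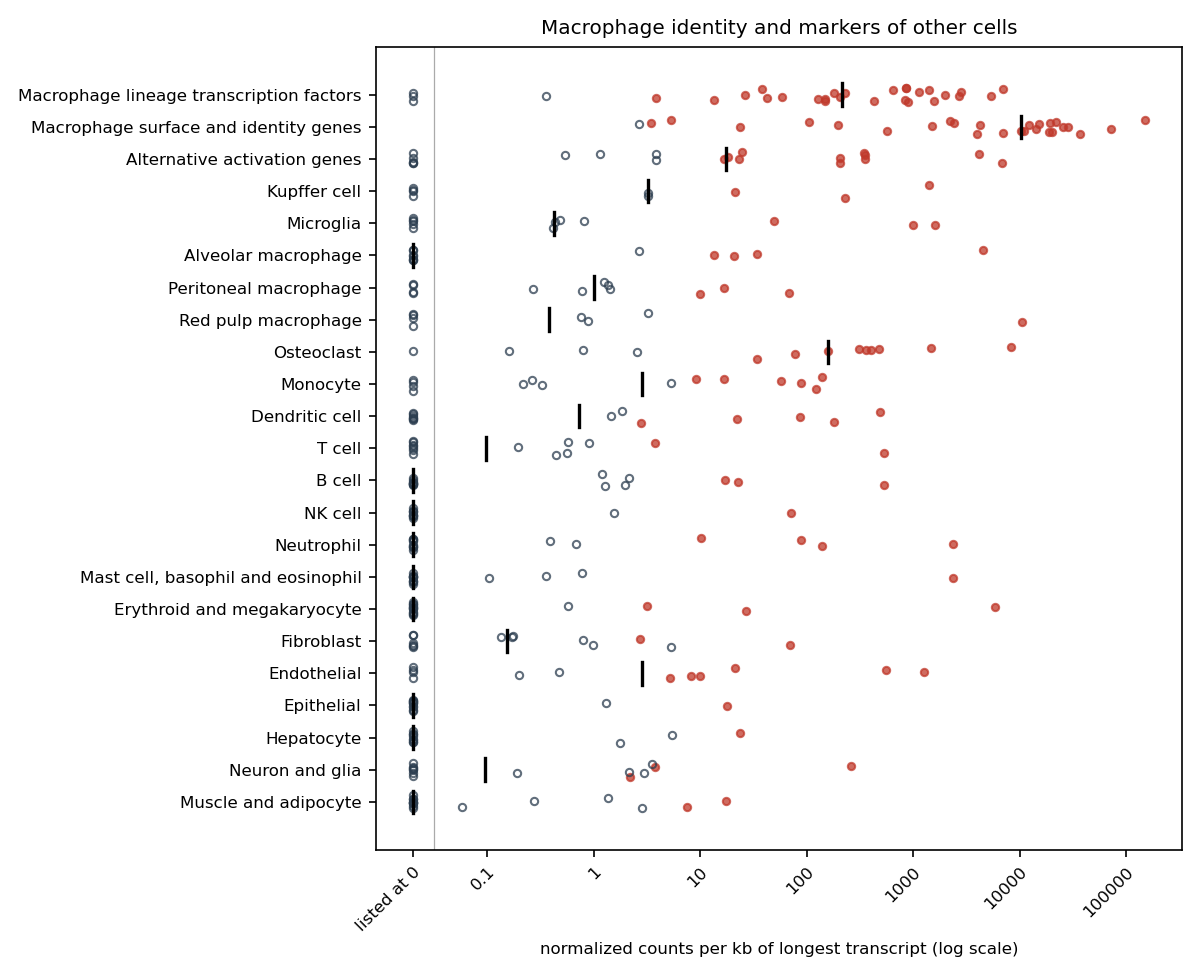
Normalized counts per kb of the longest transcript (log axis, genes listed at 0 set apart at the left) for macrophage identity genes, markers of tissue macrophages and markers of other cells, drawn as filled points at 10 normalized counts or above and open points below, with a black bar at each median. The macrophage surface list has a median of 10370.4. The alveolar macrophage, B, NK, neutrophil, mast, erythroid, epithelial, hepatocyte and muscle lists have their median at 0.

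Genes of glycolysis, the citrate cycle, lipid handling and division were mostly detected. Of 29 genes of glucose uptake and glycolysis 25 (86.2%) reached 10. Pkm had 81297 per kb, Ldha 42018, Pgk1 35999 and the glucose transporter Slc2a1 7161, and Pklr, a pyruvate kinase of liver and red cells, and Ldhb, the heart form of lactate dehydrogenase, were listed at 0. All 22 citrate cycle genes and all 13 mitochondrially encoded genes reached 10, and the latter held 1.46% of the total, from mt-Co3 at 154569 down to mt-Nd6 at 592 per kb. The ferritin chains Ftl1 and Fth1 had 119048 and 65123 per kb, an order that turned with the length used (ratio 0.799 to 2.22), and Hmox1, which degrades haem, had 10590.2. Prdx1, a peroxidase, led the redox genes at 24917 per kb, and Nqo1 was at 0.936 normalized counts. All 24 sterol and lipid genes reached 10, from Lpl, lipoprotein lipase, at 11541 per kb to Fabp4 at 17.5, and Apoe, abundant in many resident macrophages, had 146. Of 31 cell cycle genes 30 reached 10, Mki67 at 753, Top2a at 2512 and the inhibitor Cdkn1a at 10902 per kb, and Cdkn2a was listed at 0. Of 48 nuclear receptors 23 (47.9%) reached 10, against 53.0% of all protein-coding genes, led by the glucocorticoid receptor Nr3c1 at 928 per kb.

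Gene families ranged from complete to silent. All 78 mitochondrial ribosomal protein genes and all 45 proteasome genes reached 10, as did 82 of 85 cytosolic ribosomal protein genes, which held 4.69% of the protein-coding total. The exceptions Rpl3l, Rpl10l and Rpl39l are paralogs used in muscle and testis. The Schlafen family, 8 genes, held 1.03% of the total, most of it from Slfn4, Slfn5 and Slfn2, and its members are similar enough for reads to be split. Solute carriers stood at the background with 200 of 371 (53.9%). None of 53 keratin, 57 keratin-associated and 64 defensin genes reached 10. Potassium channels gave 14 of 93, with Kcnn4, the calcium-activated channel, the highest at 2065 per kb. Cadherins and protocadherins gave 14 of 97, with Pcdh7 at 1492 per kb, and collagens 13 of 44, with Col4a5 at 751. Histone cluster genes gave 15 of 67, and how well the stranded mRNA kit captured their transcripts was not tested.

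**Figure D5:**
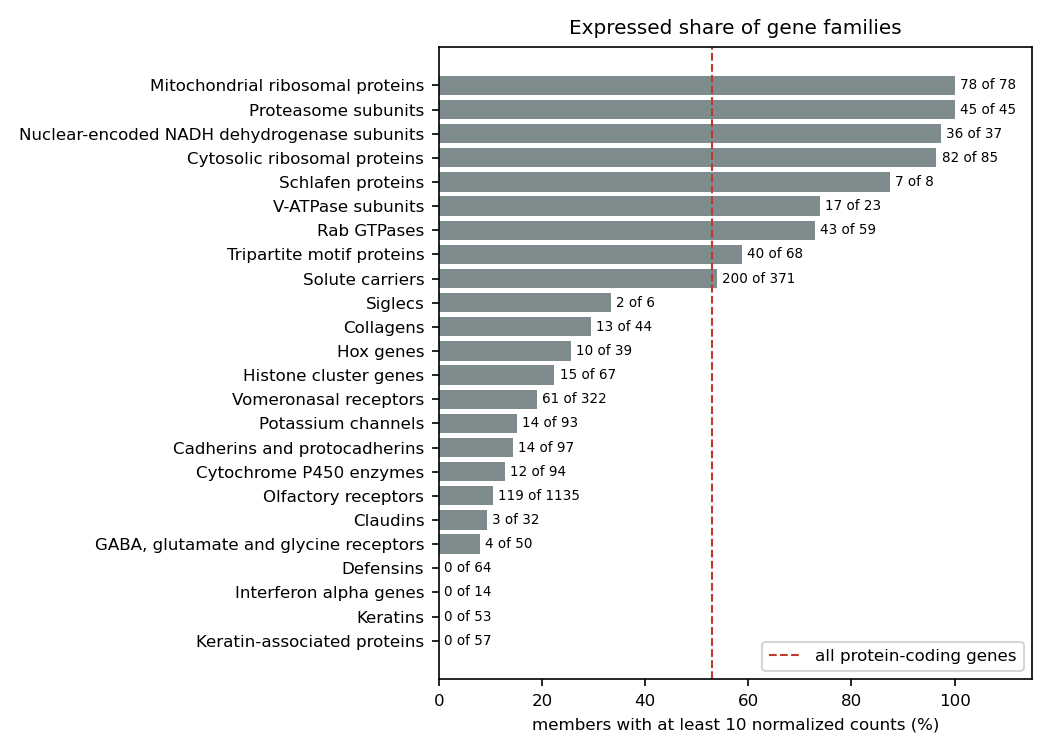
Share of the measured members of each gene family with at least 10 normalized counts, as bars from 0 in percent, with the counts at the bar ends and the 53.0% of all protein-coding genes as a dashed line. Ribosomal and proteasome families lie near 100%, solute carriers at the line, and keratins, defensins and interferon alpha genes at 0.

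Part of the abundance was clustered along chromosomes. Chromosome 11, with 1634 of the 21803 protein-coding genes, held 11.4% of the protein-coding total. Of its genes 966 (59.1%) reached 10, against 53.0% of all. Its segment from 83 to 84 Mb held 1.67%, more than any other segment of 1 Mb and more than the mitochondrial genome, with 20 of 27 genes expressed. Slfn4 alone made 44.0% of that segment. Neighbours in it differed widely: Slfn4 had 86104 per kb beside Slfn3 at 84.0 and Slfn14 at 0.934 normalized counts, and Ccl3 and Ccl4 had 177136 and 108908 per kb beside Ccl6 at 125. In the nearby Ccl2 group, Ccl2 had 12867 per kb while Ccl11 and Ccl1 were listed at 0. The Rsad2 and Cmpk2 segment of chromosome 12, from 26 to 27 Mb, held 0.888% from 2 expressed genes, and the Ifit segment of chromosome 19, from 34 to 35 Mb, 0.749%. Higher than both stood segments made almost wholly of 1 gene each. That of Spp1 held 1.07%, with 99.3% of it from Spp1, and that of Eef1a1 1.02%, with 98.2% from Eef1a1.

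The gene studied in the series was of middling abundance. Ccdc88a, which encodes GIV, a guanine nucleotide exchange modulator of trimeric G proteins, had 2580.4 normalized counts and 275 per kb in the control library, rank 6347 (chromosome 11, 29373658 to 29510808). Its paralog Ccdc88b, expressed in immune cells, had 1157 per kb and Ccdc88c 29.7. Ccdc88a thus lay under the median expressed gene of 339.6 per kb, but by value it lay above the median of 1186 normalized counts, since its longest transcript has 9376 bases.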

How the data were processed

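The authors deposited normalized counts, a signal that is never negative and is not divided by transcript length. The submitters' processing notes name Salmon, DESeq and DESeq2 and the build GRCm38, and give neither versions nor roles. Their annotation release was not given in the sources used here. The library was made with a stranded mRNA kit, per the labels' protocols. Only the column of the control library was used. Identifiers were matched without version to GENCODE M21 (54097 of 54331), which gave biotype and longest transcript. Of the low values, 82.3% lay within 0.1 of a multiple of 0.931, too few to recover whole reads. The column total over that step is roughly 52726929 reads.

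Analyses used Python 3.11.15, pandas 2.3.3 and numpy 2.4.6, and ranking was tested on simulated data. Expressed means a value of at least 10. Named genes were the 30 highest on each scale, the 10 that gained and lost most places, list members, the 3 highest of each of 24 families, GIV and its paralogs, the 5 nearest the minimum on each side and the 50 highest outside lists. Members of lists and families, neighbours on chromosome 11 and in the HoxB cluster, and Y-linked genes were also given. The 62 lists (1028 measured genes) and the members were chosen with earlier results of these data known. Some genes that the rule names are left out. Alternatives covered the minimum, predicted genes, the genes in the total and 3 other transcript lengths.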

Additional observations from a re-analysis of the deposited data

How the results depend on the processing

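The count of expressed genes, 11546 with a minimum of 10, was 12108 with 5, 11028 with 20, 13860 with any value above 0 and 11154 without predicted genes. The 100 highest genes held 22.8% of the protein-coding total, 22.5% without mitochondrially encoded genes, 23.7% without cytosolic ribosomal protein genes and 31.6% of the sum per kb. Of them 62 were shared by both rankings, and 68, 65 and 60 with the median, longest coding and merged exon lengths. The count of list members at the minimum moved by over 1.5 times in 4 of 62 lists with 5, in 5 with 20 and in 15 with any value above 0. All of these were MHC class II, monocyte, tissue macrophage or other-cell lists. The rank per kb of 39 named genes moved by over 1.5 times in 31 with the median length, in 3 with the coding length and in 6 with the merged length. Leaving out a replicate was not possible with 1 library, and the spread between cultures is unknown. No paired analysis was possible because only 1 library was described. Values under about 3 reads cannot be told from 0.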

Other observations

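Several of the highest genes per kb belonged to no list. Ifi202b, of the interferon-inducible p200 family and with close copies, had 86248 normalized counts and 50824 per kb, rank 38. The metal-binding Mt2 had 62489 per kb, the calcium-binding S100a4, S100a10 and S100a6 had 86648, 21918 and 18575, the cysteine protease inhibitor Cst3 42411, the cytokine Mif 29263 and the GPI-anchored Ly6e 40379. The chaperones Hsp90ab1, Hspa8, Hspa5 and Hsp90aa1 had 83975, 82098, 31810.0 and 30778 per kb. The single-exon predicted genes Gm10260, Gm11361 and Gm2000 had 30750.5, 27059.7 and 25338 per kb, and their share of reads from multi-copy relatives was not tested.

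Hox genes, which set position in the embryo and act in blood progenitors, gave 10 of 39 at 10 normalized counts or above. Within the HoxB cluster these were neighbours. Hoxb8 had 66.9, Hoxb7 856, Hoxb6 313, Hoxb5 151, Hoxb4 286 and Hoxb3 180.2 normalized counts. On either side, Hoxb9 was listed at 0 and Hoxb2 and Hoxb1 stood at 0.931 and 0.931.

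Receptors of the nose reached 10 far less often than the 53.0% of all protein-coding genes. Of 1135 olfactory receptor genes 119 (10.5%) and of 322 vomeronasal receptor genes 61 (18.9%) reached 10 normalized counts. Both families had a median of 0. Olfr56 was the highest per kb at 739.9, followed by Olfr1459 at 285 and Olfr1033 at 265 per kb. Vmn1r233 led the vomeronasal genes at 34.8 per kb. Reads shared with overlapping genes or related copies were not tested.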
